A study of Rattus norvegicus with 43 samples.

Results

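The prion protein gene Prnp and its neighbour Prnd, which encodes the related protein doppel, were followed in A7r5, an established line of vascular smooth muscle cells derived from rat aorta, over 7, 14 and 21 days in media of different folic acid content. Members were all probe sets that the platform annotation assigns to the symbol Prnd or Prnp alone, and this gave 2 of the 31099 probe sets on the array, 1384924_at for Prnd and 1370156_at for Prnp. Both passed the filter on low values (a log2 value above 4 in at least 4 arrays) and stood among the 9095 genes tested. The DMEM-based media held 2.5 ng/ml folic acid, called deficient, 10 ng/ml, called sufficient, or 100 ng/ml, called excess, and the labels name no other difference between groups than folic acid and day. Deficient medium had 4 arrays at day 7 and 5 at days 14 and 21, sufficient medium had 5 at each day, and excess medium had 4, 5 and 5, 43 in all. Nothing in the labels tells if replicates came from separate cultures, and the error behind each p-value may hold technical variation alone.

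Prnp encodes PrP, a glycoprotein held on the cell surface by a glycosylphosphatidylinositol (GPI) anchor, which binds copper and zinc and whose misfolded form is the agent of prion disease. Prnd encodes doppel, also GPI-anchored, which shares the folded globular part of PrP but lacks its flexible copper-binding repeats. In mammals PrP is made in brain and many other tissues, while doppel is known mainly from the testis, where male mice without it are infertile, and from blood vessel endothelium. In mouse lines whose Prnp deletion removes a splice site, transcripts that start at Prnp run on into Prnd, and doppel then appears in brain. In the RefSeq gene table of the GRCr8 rat assembly both genes lie on chromosome 3, Prnp at 139639076 to 139654420 and Prnd at 139666383 to 139671647, with 11962 bases between them.

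The sequences before the starts of the genes are shown because the genes are adjacent and differed in their response to the medium. Each is the 250 bases before the annotated start on the plus strand, from RefSeq, GRCr8. They are chr3:139666133-139666382 for Prnd and chr3:139638826-139639075 for Prnp (the first of 2 listed starts). Capitals mark a TATA box (TATANA) and a CCAAT box (CCAAT) in Prnd, and GC boxes (GGGCGG), the same CCAAT box and the binding motif of the AP-1 factors Fos and Jun (TGANTCA) in Prnp. Motifs were searched on both strands, so CCAAT also appears as ATTGG and GGGCGG as CCGCCC.
Prnd: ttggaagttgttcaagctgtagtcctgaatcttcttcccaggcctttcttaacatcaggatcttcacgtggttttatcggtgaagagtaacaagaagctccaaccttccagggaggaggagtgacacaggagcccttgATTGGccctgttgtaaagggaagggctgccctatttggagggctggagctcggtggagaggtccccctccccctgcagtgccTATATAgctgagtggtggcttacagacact
Prnp: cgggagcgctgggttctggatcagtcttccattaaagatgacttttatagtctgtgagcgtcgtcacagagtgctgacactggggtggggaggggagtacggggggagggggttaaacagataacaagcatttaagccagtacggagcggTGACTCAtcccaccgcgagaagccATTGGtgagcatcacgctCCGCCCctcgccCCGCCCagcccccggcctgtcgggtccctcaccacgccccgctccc

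The Prnd window held 1 TATANA, whose first base lies 30 bases before the start, and 0 GGGCGG, while the Prnp window held 2 GGGCGG, 58 and 46 bases before the start, and 1 TATANA far upstream, at 207 bases (not in capitals). Of 27457 promoter windows of this length, 24.1% held TATANA, 32.4% held GGGCGG and 34.3% held CCAAT, which both genes had once. TGANTCA, present in 6.36% of windows, was in the Prnp window alone. CANNTG, the E-box, present in 65.2%, was in the Prnd window alone. The CArG box of muscle genes, present in 1.501%, was in neither. G and C made up 52.4% of the Prnd window and 61.6% of the Prnp window, with 3 and 17 CG pairs. These matches are descriptions of letters and not evidence of binding.

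Both genes were selected on their log2 levels over the 9 groups, with results of these data known, so their levels and differences are given as descriptions, with standard errors of the model or SDs and with no test. All levels are the deposited log2 values, which run from 0.84 to 15.01 over the whole table. The level of one probe set cannot be set against that of another, so Prnd and Prnp are compared only by how they differ between groups. Prnp lies near the upper end of that scale, and whether this narrowed its differences was not tested.

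The 9 groups differed far more in Prnd than in Prnp. The 9 group means of Prnd spanned 4.64 on the log2 scale, 25.0-fold, and those of Prnp 0.40, 1.32-fold. Differences between groups made up 99.1% of the variance of Prnd over the 43 arrays and 66.9% of that of Prnp. The pooled SD within groups was 0.16 for Prnd and 0.10 for Prnp.

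At day 7, Prnd already stood lower in excess medium. The 4 deficient arrays had 9.78, 9.89, 9.95 and 10.04, the 5 sufficient arrays 9.68, 9.71, 9.76, 9.82 and 9.92, and the 4 excess arrays 9.14, 9.35, 9.59 and 9.67. All excess arrays lay below all sufficient arrays, by a narrow gap, and the deficient and sufficient arrays overlapped. Excess medium averaged 9.44 ± 0.24 and sufficient medium 9.78 ± 0.09 (SD, n = 4 and 5), a difference of -0.34 ± 0.10 (model standard error). Such separation of excess from sufficient arrays at day 7 was found in 4.63% of all genes tested. Deficient medium averaged 9.91 ± 0.11 (SD, n = 4), 0.14 ± 0.10 above sufficient medium, with overlap, where 2.42% of genes were separated.

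At day 14 the Prnd level in excess medium was 5.10-fold below that in sufficient medium. The 5 deficient arrays had 11.59, 11.59, 11.66, 11.68 and 11.78, the 5 sufficient arrays 11.21, 11.29, 11.33, 11.41 and 11.56, and the 5 excess arrays 8.71, 8.82, 9.03, 9.17 and 9.31. No array of any medium overlapped with another medium. The mean was 11.66 ± 0.08 in deficient, 11.36 ± 0.13 in sufficient and 9.01 ± 0.24 in excess medium (SD, n = 5 each). The difference was -2.35 ± 0.10 for excess against sufficient medium, and 20.9% of genes were separated in this way. For deficient against sufficient medium it was 0.30 ± 0.10, and 1.88% of genes were separated.

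At day 21 the gap had grown to 19.1-fold. The 5 deficient arrays had 11.75, 11.76, 11.80, 11.82 and 11.84, the 5 sufficient arrays 11.16, 11.36, 11.42, 11.49 and 11.59, and the 5 excess arrays 6.89, 7.1004, 7.14, 7.29 and 7.34. The media again formed 3 separate sets, in the order deficient, sufficient, excess, from highest to lowest. Means were 11.79 ± 0.04, 11.40 ± 0.16 and 7.15 ± 0.18 (SD, n = 5 each). The difference was -4.25 ± 0.10 for excess against sufficient medium (27.4% of genes separated) and 0.39 ± 0.10 for deficient against sufficient medium (4.39% separated).

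**Figure D1:**
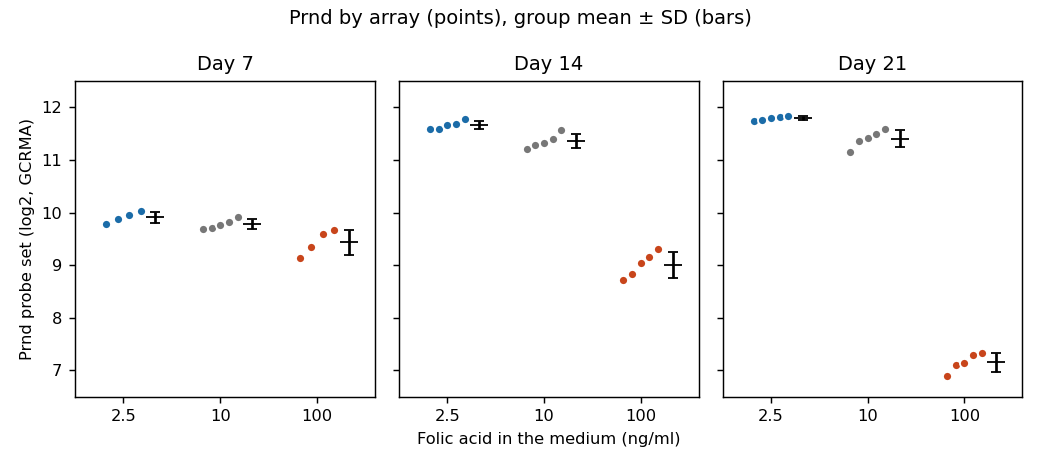
Prnd level (log2, GCRMA values) of every array by folic acid in the medium (ng/ml), with a panel for each day; bars are the group mean ± SD. At day 21 the excess arrays lie between 6.89 and 7.34, and the sufficient arrays between 11.16 and 11.59.

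The excess differences of Prnd at days 14 and 21 were the lowest of all 9095 genes, a rank given as a description only. Deficient against excess medium, the widest contrast of dose, gave 0.47 ± 0.11 at day 7, 2.65 ± 0.10 at day 14 and 4.64 ± 0.10 at day 21, and 14.0%, 22.5% and 37.8% of genes were separated in these comparisons. The order deficient above sufficient above excess, with no overlap between neighbours, held in 0.022% of genes at day 7, 0.308% at day 14 and 0.968% at day 21. Prnd showed it at days 14 and 21, as did 0.154% of genes (14 of 9095), while the opposite order at both days was found in 0.088%. These comparisons share their control arrays.

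With time, Prnd moved in opposite directions in excess medium and in the other media. Between day 7 and day 21 it was higher by 1.88 ± 0.10 in deficient medium and by 1.63 ± 0.10 in sufficient medium, and lower in excess medium, with a difference of -2.28 ± 0.10. In each of these comparisons the day 21 and day 7 arrays did not overlap, as for 60.1%, 43.7% and 44.4% of genes. Nearly all of the change in deficient and sufficient medium had taken place by day 14, with 1.75 ± 0.10 (38.2% of genes separated) and 1.59 ± 0.10 (28.0% separated) between days 7 and 14. Between days 14 and 21 it was 0.13 ± 0.10 in deficient and 0.04 ± 0.10 in sufficient medium, with overlapping arrays (27.9% and 20.4% of genes separated). In excess medium most of the change came after day 14, with -0.43 ± 0.10 between days 7 and 14, with overlapping arrays (32.1% of genes separated; -0.15 with serials up to 45 and -0.27 without serials 53 to 56), and -1.86 ± 0.10 between days 14 and 21 without overlap (14.6% of genes separated). A pattern of higher at day 21 in deficient and sufficient medium and lower in excess medium, with no overlap in any of the 3, was found in 0.176% of genes.

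The excess-minus-sufficient difference at day 21 minus that at day 7 was -3.91 ± 0.14, and at day 14 minus that at day 7 it was -2.01 ± 0.14. For deficient minus sufficient medium, day 21 minus day 7 gave 0.25 ± 0.14. These differences between days were not tested.

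From lowest to highest, the Prnd levels ran as excess day 21, excess day 14, excess day 7, sufficient day 7, deficient day 7, sufficient day 14, sufficient day 21, deficient day 14 and deficient day 21. Sufficient medium at day 21 and at day 14 differed by 0.04, within the SD of either group. The other neighbours differed by more than the larger SD of the 2 groups, but only 3 of the 8 neighbouring pairs had arrays that did not overlap. Those were excess day 14 and excess day 21, sufficient day 7 and excess day 7, and sufficient day 14 and deficient day 7.

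Prnp varied little over the same arrays. At day 7 the 4 deficient arrays had 13.33, 13.45, 13.49 and 13.52, the 5 sufficient arrays 13.32, 13.40, 13.41, 13.42 and 13.45, and the 4 excess arrays 13.05, 13.32, 13.34 and 13.54. At day 14 the 5 deficient arrays lay between 13.54 and 13.63 (median 13.60), the 5 sufficient arrays between 13.56 and 13.78 (median 13.69) and the 5 excess arrays between 13.44 and 13.74 (median 13.59). The media overlapped at both days. At day 21 the deficient arrays had 13.66, 13.67, 13.72, 13.75 and 13.78, the sufficient arrays 13.61, 13.65, 13.68, 13.68 and 13.70, and the excess arrays 13.23, 13.32, 13.36, 13.49 and 13.64. Of the 5 excess arrays at day 21, 4 lay below all sufficient arrays and 1, replicate 1, lay among them.

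**Figure D2:**
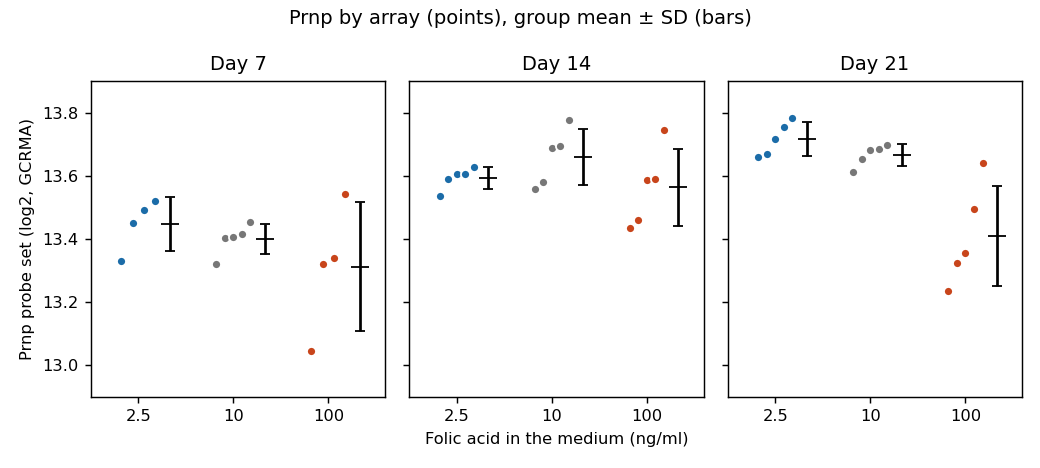
Prnp level (log2, GCRMA values) of every array by folic acid in the medium (ng/ml), with a panel for each day; bars are the group mean ± SD. The vertical axis covers 1 log2 unit, and the 43 arrays lie between 13.05 and 13.78.

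The differences of Prnp between media were small on the log2 scale. Excess against sufficient medium gave -0.09 ± 0.07 at day 7, -0.10 ± 0.07 at day 14 and -0.26 ± 0.07 at day 21, the last a 1.19-fold lower level in excess medium. The first of these moved to 0.0013 without excess replicate 1 and to -0.16 without excess replicate 6. The value at day 14 was 0.0052 without the arrays of high beta-actin difference, which include most excess arrays of that day. Deficient against sufficient medium gave 0.05 ± 0.07, -0.07 ± 0.07 and 0.05 ± 0.07. Groups overlapped in all 6 comparisons, so no dose order of separate sets like that of Prnd was seen. The means alone ran deficient above sufficient above excess at days 7 and 21, but not at day 14. Between deficient and excess medium at day 21, where the arrays did not overlap, as for 37.8% of genes, Prnp differed by 0.31 ± 0.07 (mean 13.72 ± 0.05 and 13.41 ± 0.16, SD, n = 5 each).

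With time Prnp was slightly higher. From day 7 to day 21 it differed by 0.27 ± 0.07 in deficient medium and by 0.27 ± 0.07 in sufficient medium, both without overlap (60.1% and 43.7% of genes separated), and by 0.10 ± 0.07 in excess medium with overlap. The last value was 0.0081 without replicate 1 of day 7, 0.039 without replicate 1 of day 21, and 0.17 without replicate 6 of day 7 or with serials up to 45. From day 7 to day 14 the differences were 0.15 ± 0.07, 0.26 ± 0.07 and 0.25 ± 0.07 in deficient, sufficient and excess medium, the last with overlap, while 38.2% and 28.0% of genes were separated in deficient and sufficient medium. Without replicate 1 of day 7 the value in excess medium was 0.16. From day 14 to day 21 Prnp was 0.12 ± 0.07 higher in deficient medium, without overlap (27.9% of genes separated), and differed by 0.01 ± 0.07 in sufficient and by -0.15 ± 0.07 in excess medium, both with overlap. In the order of its 9 levels, from excess day 7 at 13.31 ± 0.20 (SD, n = 4) to deficient day 21 at 13.72 ± 0.05 (n = 5), each pair of neighbours overlapped and differed by less than the larger SD of the pair.

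**Figure D3:**
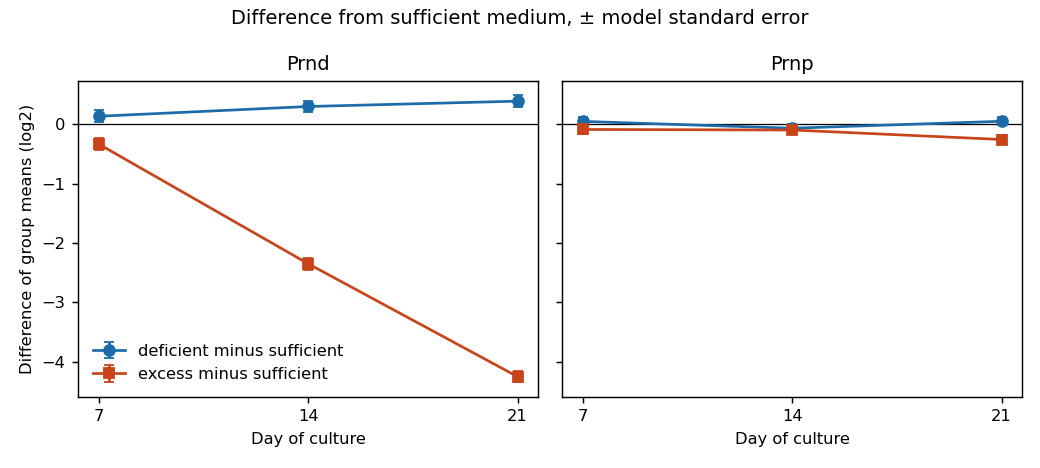
Difference of group means from sufficient medium (log2) by day of culture for Prnd (left) and Prnp (right) on a shared vertical scale; error bars are model standard errors. For excess minus sufficient medium Prnd goes through -0.34, -2.35 and -4.25, and Prnp through -0.09, -0.10 and -0.26.

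Sprn, the gene of shadoo, a further member of the prion protein family found mainly in brain, was near background on both of its probe sets, between 2.04 and 2.59 on one and between 2.03 and 2.53 on the other over the 43 arrays. It did not pass the filter, and no fold is given. Among the 5 annotated genes on each side of Prnp and Prnd in the RefSeq table, 5 had a probe set and 1 passed the filter. Adra1d, an adrenergic receptor, lay between 2.02 and 2.78, Rassf2, a Ras-binding protein, between 1.74 and 2.30, Ervv-2 between 1.498 and 2.03 and LOC102552722 between 1.92 and 2.38. The annotated RNA LOC134486157 was counted by its start among the 5 genes after Prnd, but lies inside the bounds of Prnd and not beyond it. It has no probe set of its own, and its part in the Prnd signal was not tested.

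Slc23a2, the sodium-dependent vitamin C transporter SVCT2 and the one neighbour measured, was lower in excess than in sufficient medium at day 21. It averaged 7.25 ± 0.16 in excess and 7.75 ± 0.14 in sufficient medium (SD, n = 5 each). The difference was -0.50 ± 0.10 (adjusted p = 5.3e-05 in limma, where 43.7% of genes passed). In deficient medium at day 21 the difference was 0.17 ± 0.10 (adjusted p = 0.51), and in excess medium at day 14 it was -0.20 ± 0.10 (adjusted p = 0.083). From day 7 to day 21 Slc23a2 rose in deficient medium by 0.98 ± 0.10, in sufficient medium by 0.79 ± 0.10 and in excess medium by 0.26 ± 0.10 (adjusted p = 8.4e-11, 3.2e-09 and 0.028 in limma, where 64.8%, 62.6% and 60.0% of genes passed). Its second probe set lay near background, between 2.35 and 3.16.

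The genes whose values over the 43 arrays were most like those of Prnd were Acta1, the actin of skeletal muscle (r = 0.98), Tnnc1, the troponin C of slow skeletal and cardiac muscle (0.97), Rnase4, a secreted ribonuclease (0.96), G6pc3, a glucose-6-phosphatase (0.95), and Vegfa, the vascular endothelial growth factor (0.94). Each r is a Pearson correlation among 9094 other genes, and the points share arrays and groups, so it describes the group pattern. Over the 9 group means the same genes gave 0.99, 0.99, 0.99, 0.97 and 0.97, but over deviations from the group means 0.32, 0.40, -0.02, 0.23 and 0.26. Acta1 differed by -0.30, -1.57 and -2.79 between excess and sufficient medium at days 7, 14 and 21, in the same order of days as Prnd. Its level over all arrays ran from 5.82 to 9.39. The genes most unlike Prnd were H3c1, a replication-dependent histone (r = -0.94), Ptn, the growth factor pleiotrophin (-0.93), and Cdk14, a cyclin-dependent kinase (-0.92). Ptn differed between excess and sufficient medium by 2.30 at day 21.

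**Figure D4:**
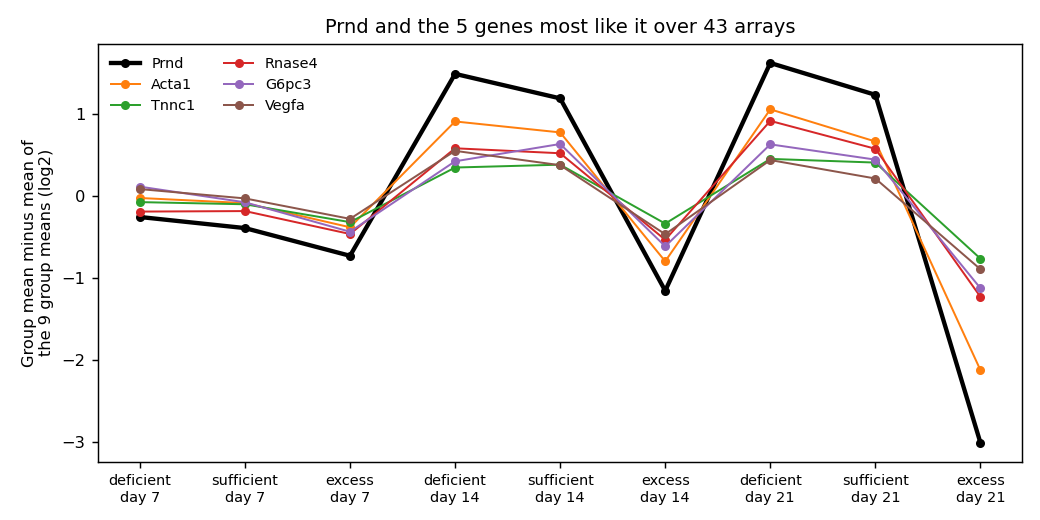
Group means of Prnd and of the 5 genes most like it over the 43 arrays, each minus the mean of its 9 group means (log2), against group in the order of days and, within a day, of dose. Prnd has the widest span of the 6 genes, 4.64.

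The genes most like Prnp over the 43 arrays were Fhl1, a LIM protein of muscle (r = 0.87), Laptm4a, a lysosomal membrane protein (0.86), Sdhc, a subunit of succinate dehydrogenase (0.85), Atp6v0e1, a subunit of the vacuolar proton pump (0.84), and Gask1b (0.82). The most unlike were Cxadr, the coxsackievirus and adenovirus receptor (-0.86), Cpsf6, of messenger RNA 3' end processing (-0.84), and Ddx21, a nucleolar helicase (-0.84). Within groups the 5 most like genes gave 0.68, 0.74, 0.72, 0.57 and 0.41. The highest r of any gene within groups was 0.91 for Prnp and 0.73 for Prnd. Prnp and Prnd correlated with each other at r = 0.73 over the 9 group means and at 0.38 within groups, and over the arrays 503 of 9094 genes were closer to Prnd than Prnp was.

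Genes around PrP and doppel were taken as 7 lists with measured members, 79 genes in all besides Prnd and Prnp. Deficient medium moved 0 of the 79 past an adjusted p of 0.05 in limma at days 7, 14 and 21, with 5, 7 and 11 at an unadjusted p below 0.05, while 0.0%, 0.088% and 0.781% of all genes passed at those days. Excess medium moved 2 at day 7, both lower (2.53% of the 79, against 2.37% of all genes). At day 14 it moved 27, of which 13 were higher and 14 lower (34.2%, against 41.2% of all genes), and at day 21 it moved 36, of which 14 were higher and 22 lower (45.6%, against 43.7%). These shares are near those of all genes. The median difference of the 79 at day 21 was -0.11, against 0.03 over all genes. For excess medium in the lists below, rose and fell mean higher and lower than in sufficient medium of the same day. There 43.7% of all genes passed at day 21, 2223 higher and 1751 lower. For day 21 against day 7 in sufficient medium 62.6% passed, 2688 higher and 3008 lower.

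Enzymes that build and remodel the GPI anchor had 18 of 28 members measured. At day 21 in excess medium 3 rose, 7 fell and 8 did not pass (median -0.11). Pigx, a partner of the first mannosyltransferase, fell by 0.41 ± 0.08 (adjusted p = 0.00017 in limma) and Pigv, the second mannosyltransferase, by 0.46 ± 0.11 (0.00046), while Pigu, of the transamidase that attaches the anchor, rose by 0.34 ± 0.07 (0.00019). From day 7 to day 21 in sufficient medium 4 rose and 6 fell (median 0.10, against -0.02 over all genes, of which 62.6% passed). Dpm1, which makes the mannose donor, rose by 0.67 ± 0.07, Pigk, the catalytic subunit of the transamidase, by 0.41 ± 0.04 and Pigp, of the first enzyme complex, by 0.87 ± 0.10 (adjusted p = 1e-10, 1.5e-10 and 2.8e-09 in limma).

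Other GPI-anchored proteins had 18 of 35 members measured, of which 4 rose and 4 fell in excess medium at day 21 (median -0.11), with 5 to 10 past the test over the alternative settings and 5 without the arrays of high beta-actin difference. Gpc4, a heparan sulphate proteoglycan, averaged 10.45 ± 0.08 in excess and 11.13 ± 0.09 in sufficient medium (SD, n = 5 each), lower by 1.61-fold at adjusted p = 2.2e-13 in limma. Gpc6, of the same family, averaged 8.77 ± 0.15 and 8.10 ± 0.17 in those media and was 1.59-fold higher (9.4e-08). Cd55, an inhibitor of complement, fell by 0.93 ± 0.13 (1.8e-07), to 3.84 in excess medium, near background, so this size is inexact. From day 7 to day 21 in sufficient medium 10 rose and 3 fell (median 0.37). Thy1, a surface glycoprotein of fibroblasts and neurons, rose by 1.64 ± 0.09, close in size to the Prnd difference of 1.63 over the same days. In the same comparison Efna1, an ephrin, rose by 1.58 ± 0.12 and Reck, an inhibitor of matrix metalloproteinases, by 1.03 ± 0.10.

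Of the proteases that cleave or shed PrP, 3 of 4 were measured (median -0.14 in excess medium at day 21), and 0 passed there in limma (1 at an unadjusted p below 0.05), with 0 to 2 over the alternative settings. Adam17 rose from day 7 to day 21 in sufficient medium, by 0.73 ± 0.07 (adjusted p = 5.6e-12 in limma, median 0.28 for the 3). Zinc transporters of the LIV-1 subfamily, to which the prion genes are thought to be related by descent, had 5 of 9 measured, of which 1 rose and 3 fell in excess medium at day 21 (median -0.23) and 1 rose and 3 fell with time in sufficient medium (median -0.18). Slc39a6 fell by 0.30 ± 0.07 in excess medium and Slc39a13 rose there by 0.45 ± 0.12 (adjusted p = 0.00096 and 0.0015 in limma), while Slc39a14, lower by 0.54 ± 0.09, lay near background. With time Slc39a13 fell by 0.66 ± 0.12. The time calls of Slc39a6 and Slc39a14 were lost in some settings, up to adjusted p = 0.06 and 0.13.

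The list of proteins reported to bind or signal with PrP is broad and of uneven evidence, with 12 of 15 measured. In excess medium at day 21, 0 rose and 3 fell (median -0.08), and 3 to 5 passed over the alternative settings, with 5 under the beta-actin covariate. Adgrg6, the receptor through which PrP acts on Schwann cells in mice, fell by 0.83 ± 0.10, Sort1, the sorting receptor sortilin, by 0.60 ± 0.10 and Ncam1, an adhesion molecule, by 0.98 ± 0.22 (adjusted p = 4.7e-09, 4e-06 and 0.00035 in limma). With time in sufficient medium 3 rose and 6 fell (median -0.19). Ncam1 fell by 1.58 ± 0.22 and Cav1, of caveolae, by 0.32 ± 0.05, while Lamc1, a laminin chain, rose by 0.54 ± 0.08.

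Copper handling had 15 of 20 members measured, of which 1 rose and 5 fell in excess medium at day 21 (median -0.17), and 3 to 7 passed over the alternative settings, with 3 for serials up to 45, without sufficient replicate 3 or 4, or without excess replicate 1 or 2. Cox17, the copper chaperone of cytochrome oxidase, fell by 0.26 ± 0.08 (adjusted p = 0.0069 in limma) and Loxl2, a copper-dependent amine oxidase, by 0.43 ± 0.15 (0.02), a call of Loxl2 that was lost without sufficient replicate 3 or without excess replicate 1 (adjusted p up to 0.11). Sod1, the copper and zinc superoxide dismutase, was higher by 0.13 ± 0.05 (0.026), a call lost in 9 of 22 settings (up to 0.13). With time in sufficient medium 6 rose and 3 fell (median 0.05), with the copper exporter Atp7a higher by 0.60 ± 0.08, Slc31a2 higher by 0.71 ± 0.10 and the importer Slc31a1 lower by 0.45 ± 0.08. Of factors reported to act on Prnp transcription, 8 of 9 were measured. In excess medium at day 21, 5 rose and 0 fell (median 0.18), where 43.7% of all genes passed. Fos rose by 1.14 ± 0.23, Sp1, which binds GC boxes, by 0.46 ± 0.08, and Jun by 0.41 ± 0.10 (adjusted p = 8e-05, 4.3e-06 and 0.00088 in limma). With time in sufficient medium 1 rose and 3 fell (median -0.06). Fos rose by 2.04 ± 0.23 from near background, Sp1 fell by 0.42 ± 0.08 and Hsf1, the heat shock factor, by 0.93 ± 0.17.

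The cells carried smooth muscle markers, all 8 of which passed the filter, with Acta2 between 13.4 and 14.6 and Tagln between 13.8 and 14.4. Of 6 endothelial markers on the array Vwf alone passed, at 3.50 to 4.26, and Pecam1 and Kdr stayed below 2.86, although doppel is known from endothelium. Tie1 and Tek, which did not pass, reached 4.03 and 3.33 on their highest arrays. Of 4 testis markers, Inha alone passed, and of 7 neural markers Mbp alone, up to 4.31. Of macrophage markers Cd14 passed alone, at 5.20 to 6.72, while Ptprc and Cd68 stayed below 2.81, and of epithelial markers Krt8 and Krt14 passed and Epcam and Cdh1 stayed below 2.77. Several summed marker levels differed between excess and sufficient medium at day 21, each given as the log2 of the sum over the list. All 8 smooth muscle markers had lower means in excess medium, and their sum was 14.85 to 14.93 there, against 15.21 to 15.49 in sufficient medium. Cnn1, calponin, averaged 10.31 and 11.13 in these media, Myh11, the smooth muscle myosin, 6.65 and 7.55, and the transcription factor Myocd 8.54 and 9.33. The skeletal muscle sum over 6 genes was 6.87 to 7.23 in excess and 9.15 to 9.30 in sufficient medium, and 9.56 to 9.80 in deficient medium. It was carried by Acta1 and by the embryonic myosin Myh3, which averaged 4.62 in excess and 6.74 in sufficient medium. The defining factors Myod1 and Myog did not follow Prnd in every comparison. Myod1, one of the 4 skeletal muscle genes that passed the filter, averaged 2.56 at day 21 and 4.51 at day 7 in sufficient medium, where Prnd was higher at day 21. Between media at day 21, Myod1 averaged 2.90 in deficient, 2.56 in sufficient and 2.31 in excess medium. That is the order of Prnd, but at values near background. Myog did not pass the filter, reached at most 3.92 and averaged 3.698 in excess and 3.43 in sufficient medium at day 21. The epithelial sum was 8.12 to 8.43 in excess and 8.70 to 9.13 in sufficient medium, and the endothelial sum 5.39 to 5.46 and 5.56 to 5.71. The epithelial sum was carried by Krt8, which averaged 8.12 in excess and 8.88 in sufficient medium. The endothelial sum adds values near background, as Vwf alone passed the filter. The macrophage sum lay the other way, at 6.77 to 6.92 in excess and 6.15 to 6.75 in sufficient medium. It was carried by Cd14, which averaged 6.37 and 5.73 in these media, and the other members did not pass the filter. The neural and testis sums overlapped, with Inha at 6.26 in excess and 5.86 in sufficient medium. The part of these markers in the Prnd difference was not tested.

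The beta-actin control had a higher median in excess than in sufficient medium at days 14 and 21, with overlapping arrays, but not at day 7. The difference between the 3' and the 5' beta-actin control probe sets, which is larger in degraded RNA, was 1.40 to 2.80 in excess medium at day 14 and 1.76 to 2.79 at day 21, against 1.43 to 1.82 and 1.56 to 1.98 in sufficient medium. At day 7 it was 1.505 to 1.90 in excess medium (median 1.71), against 1.504 to 2.38 in sufficient medium (median 1.84). The array with the lowest of these values in each excess group had Prnd at 9.17 at day 14 and at 7.34 at day 21, below all sufficient arrays. With this value as a covariate, the excess difference of Prnd was -2.22 at day 14 and -4.13 at day 21, and without the 8 arrays above 2 it was -2.26 and -4.09. The latter values rest on 2 excess arrays at each of these days. Within groups Prnd and the beta-actin difference correlated at r = -0.48 over 43 arrays and Prnp at -0.25. Sample titles carry a serial number, and the 11 arrays above 45 stand out of order. The numbers are not unique, and the labels do not say why. Serial 22 stands on replicates 2, 3 and 5 of sufficient medium at day 14. Serial 50 stands on replicate 6 of excess medium at day 14 and on replicate 6 of sufficient medium at day 21. Excess minus sufficient medium for Prnd was -2.11 (2 and 4 arrays) up to serial 45 and -2.55 (3 and 1) above it at day 14, and -4.21 (3 and 3) and -4.31 (2 and 2) at day 21. At day 7 it was -0.41 (3 and 4) and -0.12 (1 and 1). For Prnp the same differences were -0.16 and 0.13 at day 7, -0.05 and -0.16 at day 14, and -0.25 and -0.27 at day 21, so that at day 7 its sign was not the same in both parts. Deficient minus sufficient medium for Prnd was 0.31 (4 and 4) and 0.26 (1 and 1) at day 14, and at day 21 it was 0.34 (5 and 3) up to serial 45, with no deficient array above it.

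**Figure D5:**
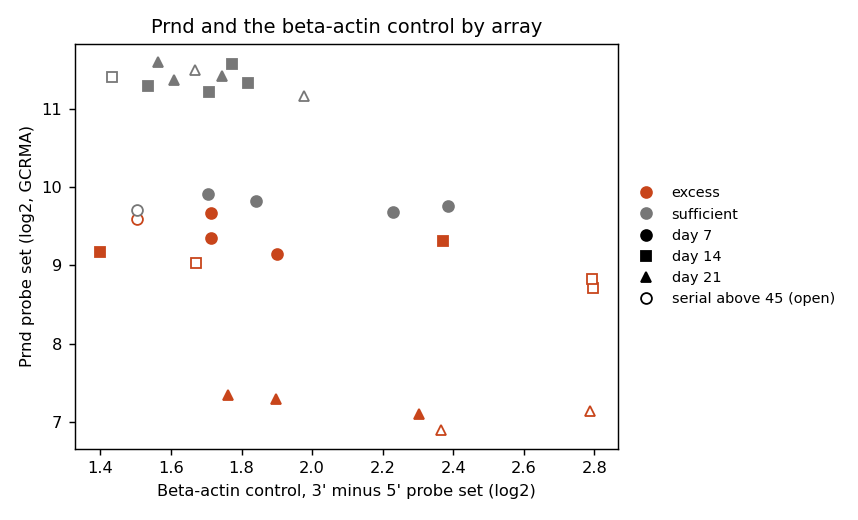
Prnd level (log2) against the difference between the 3' and 5' beta-actin control probe sets (log2) for each excess and sufficient array, with symbols for day and open symbols for serials above 45. The excess arrays of day 21 lie at 6.89 to 7.34 over the whole range of the beta-actin difference from 1.76 to 2.79.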

How the data were processed

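Labelled RNA of 43 samples was hybridised to Affymetrix Rat230_2 arrays, per the labels' protocols. The deposited table holds log2 values that the authors made with GCRMA, per the submitters' processing notes, which also name limma and give no version. GCRMA corrects background by probe sequence, normalizes by quantiles and summarizes probes, so values near background are compressed. Array medians lay between 3.66 and 3.72, replicate arrays correlated at 0.9911 to 0.998, and 0 pairs of arrays were identical. Precision is limited by how many arrays each group has.

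Of 31099 probe sets, 20832 had 1 symbol, 436 had several and 9831 were not listed. The 57 controls were left out. Each gene was its probe set of highest mean. One model of 9 group means was fitted in limma 3.58.1 (R 4.3.3; 34 residual degrees of freedom), two-sided, with Benjamini-Hochberg adjustment over 9095 genes, and was tested on simulated data. Groups and replicate numbers come from titles. Same-numbered arrays correlated above 0.1 in 9 of 33 pairs, so numbers were not taken as pairs. Named were Prnd, Prnp, Sprn, neighbours, the 5 genes most and 3 least correlated with each member, and up to 3 called genes per list and comparison with the smallest adjusted p. Members, lists and motifs were chosen with earlier results of these data or the sequences known. Plots used Python 3.11.15 and matplotlib 3.10.9.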

Additional observations from a re-analysis of the deposited data

Results flagged for a closer look

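Prnd was singled out because all arrays of one medium moved with time in one direction and all arrays of another in the opposite direction, relative to the mean of the earlier day. Between days 7 and 14 the change in excess medium minus that in sufficient medium was -2.01, and the change in deficient medium minus that in excess medium was 2.18. Between days 7 and 21 these values were -3.91 and 4.17. Between days 14 and 21 the change in deficient medium minus that in excess medium was 1.99. These differences were not tested. No array of Prnd or Prnp stood far from the others of its group by Dixon's criterion.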

How the results depend on the processing

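The precision is set by 4 or 5 arrays per group, and the background correction could not be changed. Of 447 recomputed differences of Prnd, 437 moved by less than the mean SD of their groups, and of 447 for Prnp, 445 did. Many of these leave out a single array, which cannot move a difference between 2 groups by that much. All values that moved further came from the other settings. The 14 Prnd and 6 Prnp comparisons without overlap kept their sign in each recomputed value. Leaving out a single array could not have reversed them, so this describes the other settings alone. With serials up to 45 only, Prnd moved to -2.11 for excess against sufficient medium at day 14, to 2.42 for deficient against excess medium at day 14, to -0.15 for day 14 against day 7 in excess medium, and to -1.70 and -2.10 for the excess difference at day 14 minus day 7 and day 21 minus day 14. With the beta-actin difference as a covariate it moved to 4.51 for deficient against excess medium at day 21, and to -3.74 and -1.83 for the excess difference at days 21 and 14 minus day 7. Without the 8 arrays of high beta-actin difference, an alternative chosen after seeing the data, as was leaving out serials 53 to 56, the first 2 of these were 4.48 and -3.71. Those 8 arrays include most excess arrays of days 14 and 21. Without those arrays Prnp moved to -0.072 for deficient against excess medium at day 14, and it moved to 0.11 for the excess difference at day 14 minus day 7 with serials up to 45. The cause was not tested. The replicate block shifted no Prnd difference by more than 0.026 and no Prnp difference by more than 0.023. With 1 probe set per gene, averaging of probe sets was not run for the members.

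Counts of genes called moved more. For deficient medium at day 7 array weights gave 10 in place of 0, and single arrays left out 0 to 1 (1 without deficient or sufficient replicate 1). At day 14, in place of 8, the array series as a covariate gave 21, the replicate block 3, median centring 4, array weights 106, the beta-actin covariate 5, no filter 4 and the absence of high beta-actin arrays 18, and single arrays left out gave 1 to 27 (1 without deficient replicate 1 or sufficient replicate 3, 2 without sufficient replicate 2 or 4, 5 without deficient replicate 2 or 3, 14 without deficient replicate 5, 27 without sufficient replicate 5). At day 21, in place of 71, they were 323 with the series covariate, 122 with serials up to 45, 300 with array weights, 107 with the beta-actin covariate, and 32 to 73 with single arrays left out (32, 44, 34 and 41 without deficient replicates 3, 4, 5 and 6, and 41, 41 and 33 without sufficient replicates 1, 3 and 4). For excess medium at day 7, in place of 216, they were 379, 672, 783 and 131 with the series covariate, serials up to 45, array weights and the replicate block, 140 with quantile normalization (31 higher, 109 lower, against 25 and 191), 25 without high beta-actin arrays, and 64 to 544 with single arrays left out (64, 70, 99 and 544 without excess replicates 3, 1, 4 and 6, and 82, 76 and 338 without sufficient replicates 1, 2 and 6). At day 14, in place of 3743, serials up to 45 gave 2294, high beta-actin arrays left out 2133 (902 higher, 1231 lower, against 2032 and 1711) and every probe set 6325. At day 21, in place of 3974, high beta-actin arrays left out gave 2619 and every probe set 6160. For time, every probe set gave 9562, 9131 and 9062 in deficient, sufficient and excess medium, as more features were tested, and other settings stayed within 1.5 times of 5893, 5696 and 5456. Of 876 recomputed values of named genes, 18 lost their call and 0 changed sign. The 5 genes most like Prnd and Prnp shared 3 and 4 members with a rank correlation, and 0 each with deviations from group means.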
